A study of Mus musculus with 2 samples.

Results

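A set of 9 genes of regulated secretion was followed here through every cell class of the sorted thymic epithelium: 5 granins (Chga, Chgb, Scg2, Scg3 and Scg5) and 4 genes of vesicle release (Syt1, Snap25, Stxbp5l and Cacna2d1). These 9 of the 55487 genes in the count table were chosen by name, with their high level in neuroendocrine-like cells of these same libraries already known, so their levels by class are a description and carry no test. The study asked how spermidine, a polyamine, changes RNA levels in medullary thymic epithelial cells (mTECs), the thymic cells that show antigens of other organs to developing T cells. Wild-type female C57BL/6J mice aged 4 weeks were injected into the peritoneum on 7 consecutive days, with PBS in the control group and with 15 mg/kg spermidine dissolved in PBS in the treated group. CD45+ cells were depleted, mTEChi cells and post-Aire mTEClo cells were sorted, and 4 samples, 2 per group, were marked with antibody hashtags and run as 1 droplet library of 3' tags. No source used here says that the replicates were separate mice or gives the mixing ratio of the sorted populations, and p-values then cover the spread between hashed samples alone, which may be technical.

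Granins are acidic proteins packed with peptide hormones into the dense-core granules of neurons and endocrine cells, and some are cut into peptides there. Such granules fuse with the plasma membrane when calcium enters: synaptotagmin 1 (Syt1) senses the calcium, Snap25 supplies part of the SNARE complex that joins the membranes, tomosyn-2 (Stxbp5l) holds SNARE assembly back, and the alpha-2-delta-1 subunit (Cacna2d1) carries voltage-gated calcium channels to the surface. In the medulla, Aire drives low, scattered transcription of genes of other tissues, and some cells that have passed the Aire stage come to resemble neuroendocrine, tuft, microfold or muscle cells.

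The assigned cells numbered 4709, between 993 and 1374 per sample, with 17668782 to 25673749 unique molecular identifiers (UMIs, each standing for 1 captured RNA molecule) and a median of 15736 to 17365 UMIs per cell. Further hashtags with no labelled sample (HT6 and HT7) were also present, and 897 of the 4709 cells became doublets when they entered the assignment. The main treatment results are therefore given also for the 3739 cells assigned with all 6 hashtags. Cells were clustered without the 9 genes. The main classes were tuft-like (1264 cells), Aire-stage (1216) and neuroendocrine-like (256), and 2 clusters (5 and 10) stayed unnamed.

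The 5 granin genes share a short promoter motif, and Chgb and Scg2 are the members with its full form. Whether the motif bears on any of the levels below was not tested. RefSeq windows on GRCm38.p6 from 250 bases before to 50 bases after the annotated start were held for 8 of the 9 genes, with 2 starts for Syt1, which makes 9 windows of 300 bases. The Chga window is chr12:102554691-102554990 (+ strand), that of Chgb is chr2:132781392-132781691 (+ strand), and that of Scg2 is chr1:79439977-79440276 (- strand). Each is written 5′ to 3′ on the strand of its gene, and capitals mark the cAMP response element (CRE) TGACGTCA, its core TGACG and the TATA box TATAAA.
Chga: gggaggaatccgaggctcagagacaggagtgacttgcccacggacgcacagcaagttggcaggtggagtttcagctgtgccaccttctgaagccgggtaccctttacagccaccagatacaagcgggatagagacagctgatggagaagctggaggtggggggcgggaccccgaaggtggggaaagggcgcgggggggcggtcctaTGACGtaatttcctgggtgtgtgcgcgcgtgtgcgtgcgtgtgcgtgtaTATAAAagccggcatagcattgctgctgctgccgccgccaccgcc
Chgb: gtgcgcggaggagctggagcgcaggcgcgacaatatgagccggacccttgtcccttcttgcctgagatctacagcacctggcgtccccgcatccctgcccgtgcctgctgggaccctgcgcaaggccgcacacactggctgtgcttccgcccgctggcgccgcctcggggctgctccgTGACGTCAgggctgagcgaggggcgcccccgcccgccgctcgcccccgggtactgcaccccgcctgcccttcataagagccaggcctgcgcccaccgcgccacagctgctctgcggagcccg
Scg2: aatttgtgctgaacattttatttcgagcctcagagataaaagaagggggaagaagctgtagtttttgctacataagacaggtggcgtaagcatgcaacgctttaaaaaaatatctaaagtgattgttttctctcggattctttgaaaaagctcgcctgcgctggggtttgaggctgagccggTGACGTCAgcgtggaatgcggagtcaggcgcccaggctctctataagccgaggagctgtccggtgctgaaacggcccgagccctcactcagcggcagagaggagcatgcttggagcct
Both strands were searched, and each CRE also holds the core on both. Counting back from the start, the CRE began at base -72 in Chgb and at base -68 in Scg2, in 2 of the 9 windows, while 1.79% of all 32851 promoter windows of that length hold it. The core was in 6 of the 9 windows, those of all 5 granins and Cacna2d1, against 20.8% of all windows. It began at base -44 in Chga, -30 in Scg3 and -146 in Cacna2d1. Scg5 held it 3 times, from base -175 and from bases 20 and 41 after the start. Of the other letters searched, the E-box CAGCTG was in 3 of 9 windows against 16.3% of all, CATCTG in 0 of 9 against 17.2%, CANNTG (which includes both) in 5 of 9 against 72.3%, and TATAAA in 1 of 9 against 13.6%. That TATAAA, in Chga, began at base 6 after the annotated start, so it does not lie before the start used here. Positions count from the RefSeq starts, and gene starts in GENCODE can differ from them, as for Chga. These are matches of letters and not measured binding.

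All 9 genes are protein-coding in GENCODE M21 (GRCm38). The granins lie at chr12:102554969-102565028 (Chga), chr2:132781278-132795079 (Chgb), chr1:79434669-79440120 (Scg2), chr9:75643189-75684056 (Scg3) and chr2:113776362-113829121 (Scg5). The release genes lie at chr10:108497650-109010982 (Syt1), chr2:136713453-136782428 (Snap25), chr16:37114942-37384962 (Stxbp5l) and chr5:15934691-16374511 (Cacna2d1). Tags from the 3' end cannot tell where in a gene transcription began, so no start site was measured.

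All 9 genes had their highest mean level in the neuroendocrine-like class, at levels given as CPM, the UMIs of a gene scaled to a common total of UMIs per class and sample. The order holds from gene to gene, but levels of different genes are not compared, since a 3' count depends on the gene. For 7 of the 9 genes the lowest neuroendocrine-like sample lay above the highest sample of any other class. The exceptions were Chga and Scg2. Under 6 other ways of assigning, filtering or clustering cells all 9 kept that first place, except under the stricter cell filter, where 1 gene, Chga, was highest in muscle-like cells.

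**Figure D1:**
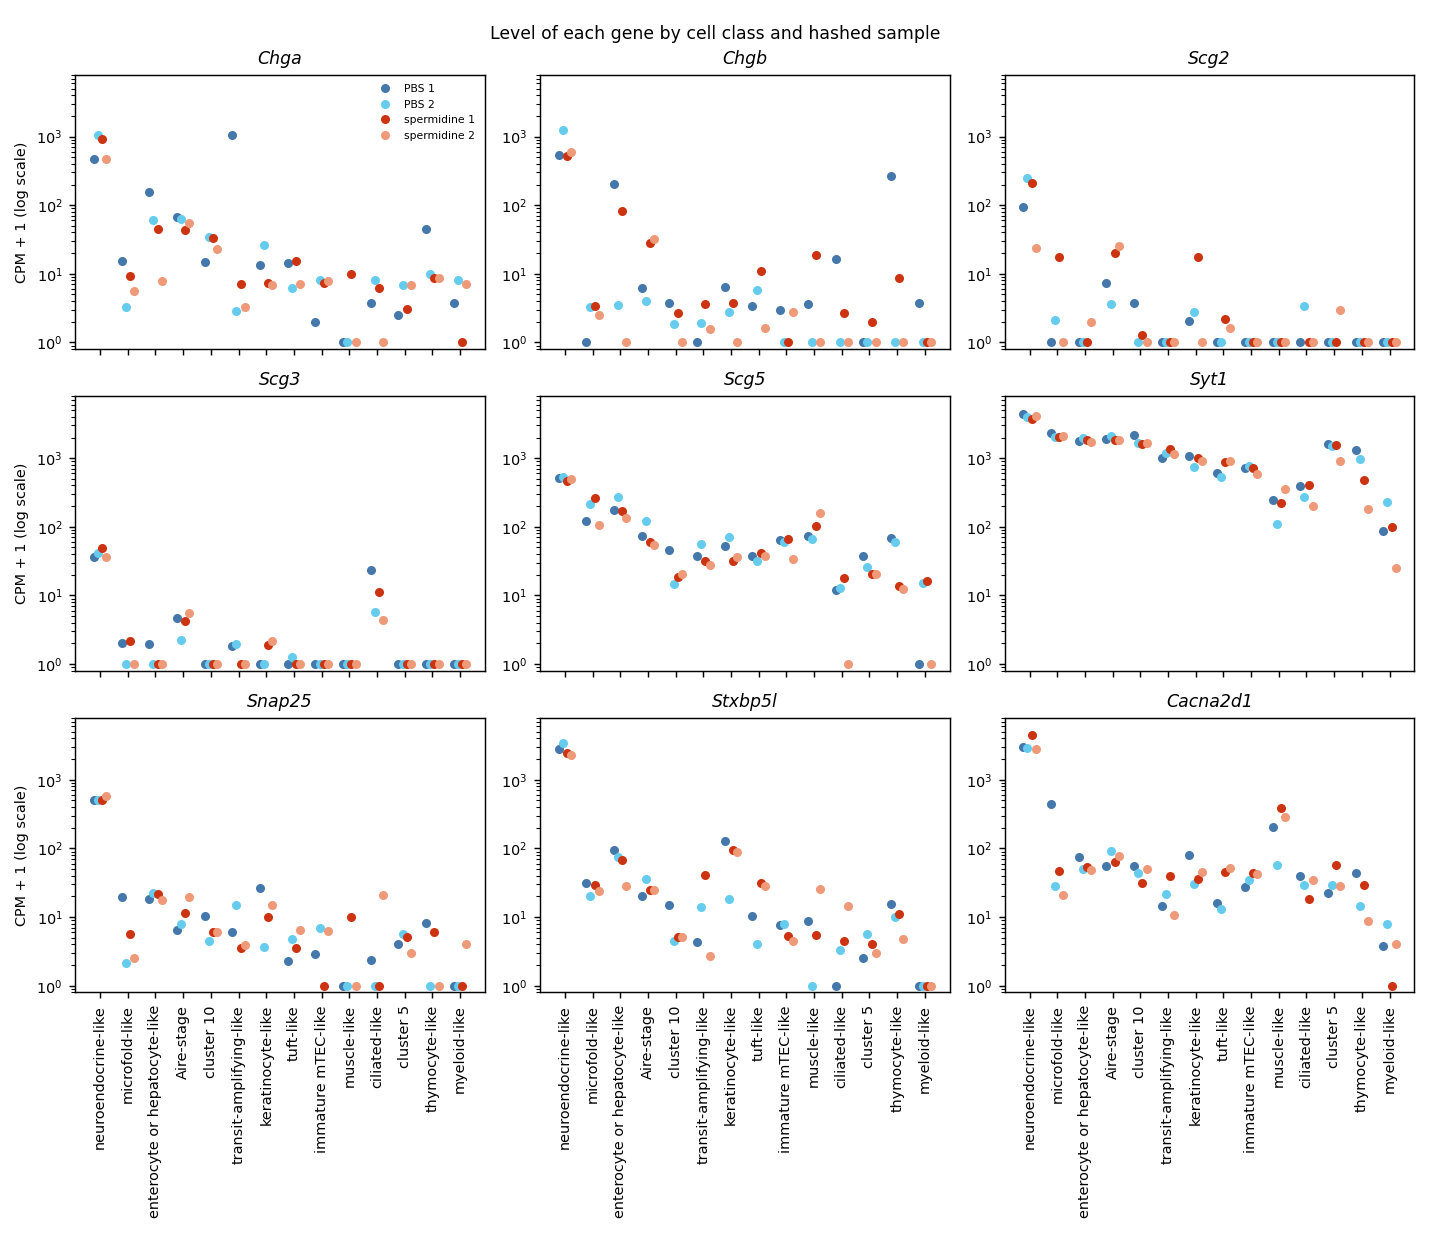
Level of each of the 9 genes (CPM + 1, log scale) in 14 cell classes, 1 point per hashed sample, PBS in blue and spermidine in red. The 4 neuroendocrine-like samples stand above those of all other classes for 7 genes, and single high points elsewhere, such as Chga in transit-amplifying-like cells of PBS replicate 1, can come from 1 cell.

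Among the granins, chromogranin A (Chga), a precursor of several peptides, was at 731 ± 303 CPM (SD, n = 4) in neuroendocrine-like cells. Its samples were at 477 and 1046 CPM with PBS and 935 and 465 with spermidine, so each group held 1 high and 1 low sample. Chromogranin B (Chgb), its closest relative in granules, was at 539 and 1232 CPM with PBS and 522 and 601 with spermidine, with PBS replicate 2 standing above the other three. Secretogranin II (Scg2), the precursor of secretoneurin, was at 92.1 and 245 CPM with PBS and 207 and 22.8 with spermidine, with the highest sample more than 10-fold above the lowest. Secretogranin III (Scg3), which binds Chga in the granule, lay close together at 35.1, 40.9, 48.3 and 35.0 CPM. Scg5 encodes 7B2, the chaperone of the prohormone convertase PC2, and was as even, at 521, 537, 460 and 494 CPM.

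Of the vesicle release genes, Syt1 was at 4333 and 4018 CPM with PBS and 3769 and 4106 with spermidine, and Snap25 at 516, 500, 511 and 578 CPM in the same order. The 4 samples of each lay close together. Stxbp5l was at 2816 and 3434 CPM with PBS and 2442 and 2265 with spermidine, both treated samples being the lower. Cacna2d1 was at 3006, 2904, 4507 and 2803 CPM, with spermidine replicate 1 above the other three.

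How far the other classes shared a gene differed from member to member. Syt1 was read in every class: neuroendocrine-like cells held 14.7% of its UMIs and Aire-stage cells 37.0%. Microfold-like (2128 CPM), Aire-stage (1926) and enterocyte- or hepatocyte-like cells (1824) followed in the order with overlapping samples, and tuft-like cells were at 734 CPM. Myeloid-like cells, the reference for free RNA, were at 109 CPM. Thymocyte-like cells, also not epithelial, were at 734 CPM, as high as tuft-like cells, with samples from 180 to 1309 CPM. How much of the tuft-like level is free or carried-over RNA was not tested. With every cell thinned to 5000 UMIs, 99.8% of neuroendocrine-like, 95.9% of Aire-stage, 75.8% of tuft-like and 16.4% of myeloid-like cells held a Syt1 UMI (99.6% of neuroendocrine-like cells without thinning).

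Stxbp5l stood at the other end, with 86.9% of its UMIs in neuroendocrine-like cells, followed by Snap25 with 79.9%, Cacna2d1 with 78.2% and Chgb with 75.9%. Stxbp5l was next highest in keratinocyte-like cells, at 81.8 CPM. Snap25 was next highest in enterocyte- or hepatocyte-like cells, at 19.0 CPM, and Cacna2d1 in muscle-like cells, at 233 CPM, where the samples ran from 56.9 to 390 CPM. A UMI of Cacna2d1 was found in 92.0% of thinned neuroendocrine-like cells, in 37.5% of the 35 muscle-like cells, in 17.0% of Aire-stage cells, in 6.8% of tuft-like cells and in 1.1% of myeloid-like cells.

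Scg5 was the most widely shared granin, since only 32.4% of its UMIs lay in neuroendocrine-like cells. Enterocyte- or hepatocyte-like cells (187 CPM) and microfold-like cells (177 CPM) came next with overlapping samples, and a UMI was found in 36.5% and 38.4% of their thinned cells, against 83.3% of neuroendocrine-like and 1.8% of myeloid-like cells. By level, Scg5 was at 37.9 CPM in thymocyte-like, 36.1 in tuft-like and 7.35 in myeloid-like cells. Scg3 was the rarest: ciliated-like cells followed at 10.2 CPM and Aire-stage cells at 3.22 CPM, and the gene had 0 UMIs in cluster 10, cluster 5, immature mTEC-, muscle-, thymocyte- and myeloid-like cells. For Scg2 the second place fell to Aire-stage cells, at 12.97 CPM, and the spermidine replicate 2 sum of that class (24.2 CPM) lay above the lowest neuroendocrine-like sample.

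Several high values outside the neuroendocrine-like class came from 1 cell. In transit-amplifying-like cells Chga reached 1053 CPM in PBS replicate 1 and stayed between 1.87 and 6.18 CPM in the other three samples, and 1 cell held 1253 of those 1257 UMIs. Likewise 1 enterocyte- or hepatocyte-like cell of the same sample held 99.0% of the 209 Chgb UMIs of its class. In thymocyte-like cells 1 cell held 68 of 74 Chgb UMIs, and in microfold-like cells 1 cell held 378 of 434 Cacna2d1 UMIs, again in PBS replicate 1.

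The name of the neuroendocrine-like class rests on 9 of 29 list markers at least 2-fold above the other cells, among them Insm1, Isl1, Rfx6, Pcsk1, Resp18, Ddc, Cplx2 and Ret. Its 3 leading genes by fold were Cd177, Stxbp5l and Col8a1, and Stxbp5l is a member chosen for that pattern. Insm1, a factor of endocrine cell differentiation, was at 289 CPM and Rfx6 at 247 CPM, while Neurod1 was at 23.1 CPM in 5.08% of the cells and Pax4 and Tac1 had no UMI. Several peptide hormone genes of the list were lower there than in Aire-stage cells: Pyy was at 6.03 against 372 CPM, Sst at 1.47 against 85.7, Gip at 3.15 against 74.8 and Calca at 237 against 337. The hormone gene Ghrl went the other way, at 215 against 13.5 CPM. Its neuroendocrine-like samples were at 210 and 265 CPM with PBS and 369 and 15.2 with spermidine. The summed list was at 4336 and 4030 CPM with PBS and 3610 and 3441 with spermidine. A list of goblet and secretory genes ranged from 580 to 3485 CPM among the same samples and one of enterocyte and hepatocyte genes from 2315 to 18777 CPM, with no member of either at 0. The 18777 CPM was that of spermidine replicate 2, and the other samples reached at most 5113 CPM. In spermidine replicate 2 the enterocyte- or hepatocyte-like class itself was at 15416 CPM. A list of neuron, chromaffin and Schwann cell genes ranged from 233 to 347 CPM, with 4 of 18 at 0. Aire itself was at 68.9 CPM there, against 715 CPM in Aire-stage cells.

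Within the class, Scg2 and Chgb sat in few cells and Syt1, Scg5 and Snap25 in most. At the narrow end, 5 of the 256 cells held at least 50% of the Scg2 UMIs and 7 cells those of Chgb, whereas it took 21 cells for Chga, 25 for Scg3, 32 for Stxbp5l, 40 for Cacna2d1, 51 for Snap25, 56 for Scg5 and 63 for Syt1. The highest 26 cells held 98.2% of Scg2, 82.3% of Chgb, 56.6% of Chga and 27.7% of Syt1 UMIs. A neuroendocrine-like cell had a median of 61 UMIs of Syt1, 32.5 of Cacna2d1 and 24.5 of Stxbp5l, but 1 of Chgb and 0 of Scg2, whose highest cells held 338 and 85 UMIs. By the share of cells with a UMI Scg3, and not Chgb, was nearest to Scg2: after thinning the share was 89.5% for Stxbp5l, 77.5% for Snap25, 59.7% for Chga, 43.2% for Chgb, 16.0% for Scg3 and 11.4% for Scg2, and without thinning 93.0%, 89.8%, 75.4%, 59.0%, 34.8% and 14.1%.

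**Figure D2:**
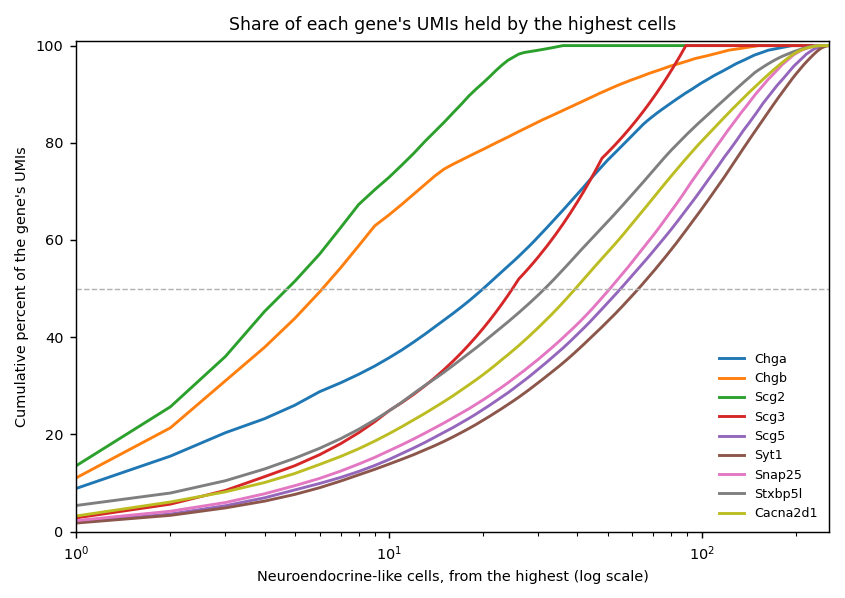
Cumulative share of a gene's UMIs (percent) over the 256 neuroendocrine-like cells, ordered from the highest (log scale), 1 line per gene, with a dashed line at 50%. Scg2 and Chgb pass 50% within 5 and 7 cells and Syt1 with 63.

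Several members were found together in single neuroendocrine-like cells. At 5000 UMIs per cell a neuroendocrine-like cell held a median of 6 of the 9 genes, and 145 of 244 (59.4%) held at least 6. Only 3 of 1091 Aire-stage cells and 0 of 1159 tuft-like cells did, the latter allowing a share of up to 0.259%, by the 3 counts that a count of 0 still allows. Of the 153 cells of any class with at least 6, 94.8% were neuroendocrine-like. No granin was found in 4.92% of the 244 cells and 4 or 5 granins in 10.7%. Levels of the members moved little together from cell to cell: over 36 pairs the median Spearman correlation was 0.07, from -0.13 (Scg3 with Syt1) to 0.27 (Chga with Chgb), in cells that share a library and its free RNA. Chga and Chgb were found together in 72 cells, against 58.8 had they been independent, and Chgb and Scg2 in 20 against 10.95.

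**Figure D3:**
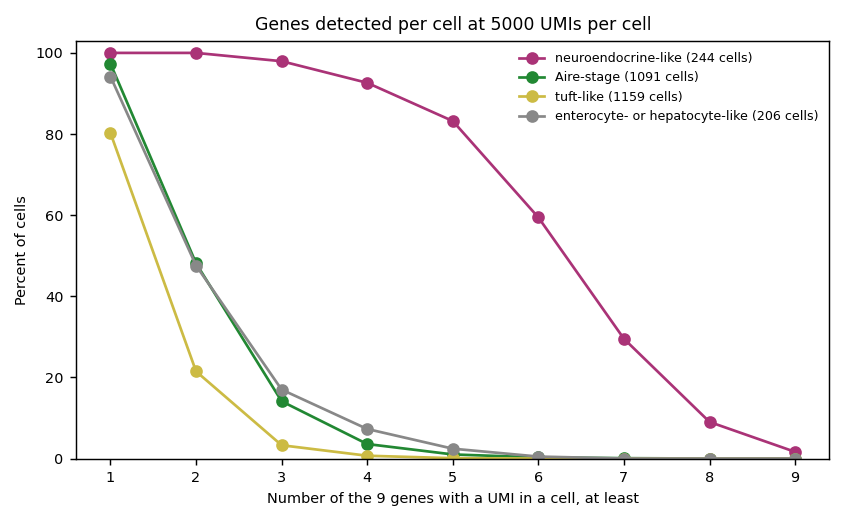
Percent of cells (y axis) with at least the number of the 9 genes on the x axis, each cell thinned to 5000 UMIs, 1 line per class. At 6 genes the neuroendocrine-like class is at 59.4% and the tuft-like class at 0.

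Aire-expressing clusters differed in these genes. Aire was at 1116 CPM in cluster 10, at 932 CPM in cluster 2, at 688 CPM in cluster 5 and at 403 CPM in cluster 3, and clusters 2 and 3 form the Aire-stage class. Of these 4, cluster 5 (83 cells) had the lowest Chga (3.87 CPM, mean of 4 samples), Chgb (0.25 CPM) and Cacna2d1 (33.7 CPM), followed by cluster 10 (25.2, 1.33 and 44.2 CPM). Their Chgb and Cacna2d1 samples overlapped. Cluster 5 stayed unnamed for its neutrophil granule genes, and its list of transit-amplifying genes was at 7243 to 8406 CPM. That list was at 2935 to 3115 CPM in transit-amplifying-like cells and at 243 to 474 CPM in Aire-stage cells. The part of these traits in the low levels of cluster 5 was not tested. In cluster 2 Chga was at 63.1, Chgb at 22.3 and Scg2 at 19.96 CPM, while cluster 3 led in Scg5 (138 CPM against 29.5 in cluster 2) and Syt1 (2626 against 1431 CPM). Cacna2d1 was at 84.3 CPM in cluster 3 and 57.5 in cluster 2, with overlapping samples (53.8 to 150 and 35.6 to 88.6 CPM). Within cluster 3, the 165 cells with no Aire UMI had 172 CPM of Cacna2d1, 82.1 of Chga and 194 of Scg5, against 64.7, 37.0 and 126 CPM in the 431 cells with one. Their median depth was 10369 UMIs against 18530, and the part of depth in this split was not tested. Cluster 2 differed: its 32 cells with no Aire UMI had 55.6 CPM of Cacna2d1, 50.5 of Chga and 37.9 of Scg5. Its 588 cells with one had 59.4, 59.5 and 27.0 CPM, so only Scg5 of these was higher without an Aire UMI. Both splits pool the cells of all samples and carry no spread between samples.

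A list of 96 other genes of docking and fusion, vesicle membranes, synaptotagmins, granule cargo and calcium channels was read the same way. Of the 87 with at least 100 UMIs, 37 (42.5%) had their highest mean level in neuroendocrine-like cells, against 18.0% of all 18356 genes with as many UMIs. Of these 96 genes, 6 (Pcsk1, Resp18, Cplx2, Vgf, Pcsk1n and Scgn) are also on the neuroendocrine marker list. Pcsk1, Resp18 and Cplx2 are among the markers that gave the class its name. The list of 96 was written with earlier results of these data known. By role it was 8 of 13 granule cargo and processing genes, 5 of 10 membrane genes, 5 of 11 synaptotagmins, 15 of 39 docking and fusion genes and 4 of 14 channel subunits. Those named here are the 5 with the highest CPM there, a rule for naming and not a comparison between genes: Ptprn2 (2127 CPM), a granule membrane protein, Pam (1006 CPM), which amidates peptides, Resp18 (787 CPM), Cacna1a (763 CPM), the pore of P/Q-type calcium channels, and Cadps (563 CPM), which primes granules.

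Genes with the most similar pattern to each member were sought over 36 sums (9 classes in 4 samples), by Pearson's r of log2(CPM + 1). The points share libraries and classes, so r is a description. The highest for Chga were Elavl4 (0.81), Kcnc1 (0.80) and Grpr (0.80), for Chgb A330093E20Rik (0.94), Neto1 (0.93) and Fam183b (0.88), for Scg2 Gjd2, Rimbp2 and Cela1 (each 0.87), for Scg3 Agbl4 (0.93), Speer4c (0.93) and Gjd2 (0.92), and for Scg5 Nek6 (0.90), Cyp2c68 (0.89) and Glud1 (0.89). Syt1 was closest to Spock3 (0.93), Slc6a7 (0.91) and Tmtc2 (0.89), Snap25 to A330076H08Rik (0.91), Ffar2 (0.90) and Gm43490 (0.90), and Stxbp5l to Foxa3 (0.92), Car8 (0.91) and Pam (0.89). Cacna2d1 was closest to Gm43490 (0.94), Cacna1a (0.92), a pore subunit of the channels it serves, and Cpn1 (0.91).

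The first treatment comparison asked whether spermidine changed these genes inside neuroendocrine-like cells, and 0 of the 9 passed the test. Sums of 107 and 49 PBS cells and of 63 and 37 spermidine cells entered the quasi-likelihood fit of edgeR, in which 0 of 10608 genes (0%) had an adjusted p under 0.05 and 430 had an unadjusted p under 0.05. Log2 fold changes of spermidine over PBS were -0.09 (SE 0.401) for Chga, -0.63 (SE 0.343) for Chgb, -0.43 (SE 0.745) for Scg2, 0.19 (SE 0.260) for Scg3 and -0.12 (SE 0.148) for Scg5. For the release genes they were -0.06 (SE 0.135) for Syt1, 0.13 (SE 0.154) for Snap25, -0.38 (SE 0.148) for Stxbp5l and 0.33 (SE 0.205) for Cacna2d1, each with an adjusted p of 0.9997 in edgeR. Both treated samples lay below both PBS samples for 2 genes, Scg5 and Stxbp5l, and above them for 0, shares to be read against 18.1% and 14.5% of all genes tested. Chgb was at -1.11 without PBS replicate 1, which has the lower PBS value, and its direction turned (0.09) without PBS replicate 2. As to detection, at 5000 UMIs per cell, Chga was found in 55.9% and 64.0% of PBS and 63.8% and 57.6% of spermidine neuroendocrine-like cells, and the samples of the 2 groups overlapped for all 9 genes, while they did not for 32.7% of the 15130 genes with at least 10 UMIs in the class. With all 6 hashtags 0 members passed, with log2 fold changes from -0.83 (Chgb) to 0.40 (Cacna2d1). The shares then did not overlap for Chgb (46.0% and 47.3% with PBS, 40.1% and 45.8% with spermidine) and Stxbp5l (93.28% and 82.5%, 95.4% and 93.34%), and 1 or 2 shares separated in each of the settings with 3000 UMIs, 10000 UMIs and hashtags assigned by margin. No share over all genes was computed under these other settings, and nothing is read from these counts.

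Neuroendocrine-like cells made up 8.01% and 4.93% of the PBS samples and 4.59% and 3.67% of the spermidine samples. The group means were 6.47% ± 2.18 (SD, n = 2) and 4.13% ± 0.644 (SD, n = 2), a difference of -2.35 percentage points with p = 0.33 in the two-sided exact permutation test, the smallest p that 2 against 2 samples allow. The difference was -0.805 points without PBS replicate 1 and -1.87 points with all 6 hashtags. Sorting and pooling can set such shares.

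**Figure D4:**
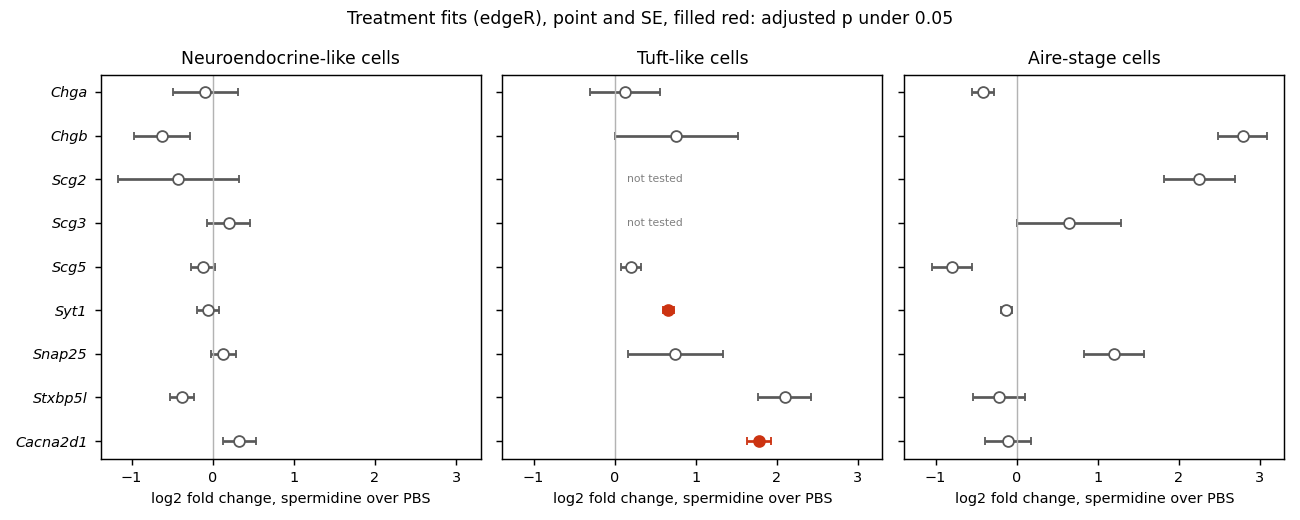
Log2 fold change of spermidine over PBS (x axis) of each gene in neuroendocrine-like, tuft-like and Aire-stage cells, with bars of 1 SE from edgeR, filled red where the adjusted p was under 0.05. Cacna2d1 (1.78) and Syt1 (0.66) in tuft-like cells are the red points.

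In tuft-like cells 2 of the 9 genes rose with spermidine, Cacna2d1 and Syt1. Tuft cells are chemosensory epithelial cells, and 8 of the 9 members had means of at most 36.1 CPM there, Syt1 being the exception. Cacna2d1 was at 14.9 and 12.3 CPM with PBS and at 43.9 and 50.4 CPM with spermidine, so the groups did not overlap, and all 4 values were far below the mean of 3305 CPM in neuroendocrine-like cells. Its log2 fold change was 1.78 (SE 0.148) with an adjusted p of 0.00227 in edgeR. Syt1 was at 611 and 535 CPM with PBS and 880 and 912 CPM with spermidine, a log2 fold change of 0.66 (SE 0.070) with an adjusted p of 0.00982 in edgeR. In the same fit 13 of 13823 genes (0.094%) were called, 12 of them higher.

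The remaining members did not pass in tuft-like cells. Stxbp5l was at 9.48 and 3.0 CPM with PBS and 30.7 and 27.3 CPM with spermidine (2.10, SE 0.322, adjusted p = 0.0555 in edgeR), but 1 cell held 48.5% of its UMIs in spermidine replicate 1 and 87.2% in replicate 2. Without the top cell of each gene in each sample its log2 fold change was 0.88, and with the 9 genes left in the clustering it was -0.29. Log2 fold changes were 0.13 for Chga, 0.76 for Chgb, 0.20 for Scg5 and 0.75 for Snap25, while Scg2 and Scg3, with 7 and 1 UMIs in all tuft-like cells, were too low to test. Both treated samples lay above both PBS samples for 4 of the 7 tested genes, against 18.5% of all genes tested, and below them for 0, against 24.2%.

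Cacna2d1 and Syt1 were called in 1 of the 3 tuft-like clusters, which were fitted on their own after the result was seen. In cluster 1 (549 cells) Cacna2d1 was at 14.5 and 15.0 CPM with PBS and 73.9 and 64.0 CPM with spermidine (log2 fold change 2.26, SE 0.175, adjusted p = 0.00163 in edgeR). Syt1 in that cluster was at 759 and 656 CPM with PBS and 1291 and 1366 CPM with spermidine (0.93, SE 0.10, adjusted p = 0.00773 in edgeR), among 37 of 11857 genes called (0.312%). Cluster 0 (591 cells) had Cacna2d1 at 7.28, 7.11, 11.5 and 4.14 CPM and Syt1 at 428, 451, 463 and 394 CPM in the order PBS, PBS, spermidine, spermidine, with overlapping groups and 0 genes called. The difference of the Syt1 effect between clusters 1 and 0 was 0.96 (SE 0.149, adjusted p = 0.0487 in edgeR), 1 of 7 such genes among 12222 (0.0573%), and that of Cacna2d1 was 2.06 (SE 0.451, adjusted p = 0.234 in edgeR), which did not pass. In cluster 7 (124 cells, 21 to 52 per sample) neither gene passed, though both values were above 0. They were 1.52 (SE 0.620) for Cacna2d1 and 0.32 (SE 0.254) for Syt1, so the rise of Cacna2d1 is not shown to be confined to cluster 1.

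**Figure D5:**
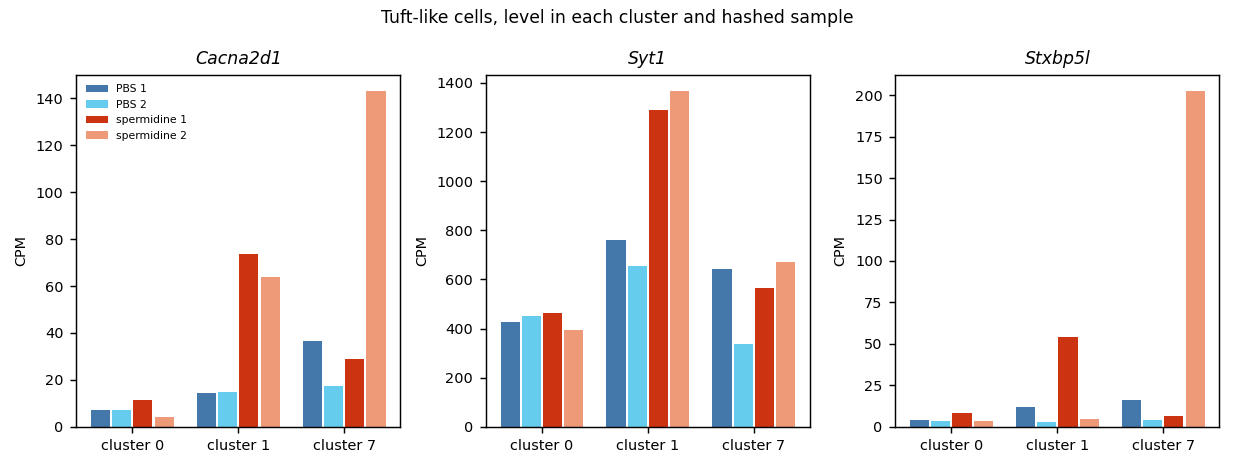
Level (CPM, axis from 0) of Cacna2d1, Syt1 and Stxbp5l in the 3 tuft-like clusters, 1 bar per hashed sample. Cluster 1 has both spermidine samples above both PBS samples for Cacna2d1 and Syt1, and the high bars of Stxbp5l include 1 sum of 75 UMIs that all came from 1 cell.

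Few cells carried the Cacna2d1 signal. At 5000 UMIs per cell 5.40% and 4.89% of PBS and 8.45% and 10.0% of spermidine tuft-like cells held a UMI of it, and Syt1 was found in 75.1% and 72.4% against 77.5% and 79.5%, each with p = 0.33 in the exact permutation test. These were 2 of the 7 members with at least 10 UMIs in the class, and the groups did not overlap for 38.4% of all such genes. Cells of cluster 1 with at least 5 Cacna2d1 UMIs numbered 3 and 1 with PBS and 6 and 8 with spermidine, and the 18 cells had 3116 CPM of Syt1 and 131 CPM of Stxbp5l, against 876 and 7.20 CPM in the 460 cells without a Cacna2d1 UMI. Their median of the summed neuroendocrine list was 216 against 59.9 CPM, of the Aire-stage list 3432 against 1498 CPM and of the tuft list 9406 against 15398 CPM. Under the assignment with 6 hashtags 7 of the 18 (38.9%) were doublets, against 110 of the 460 (23.9%). The 18 cells had a median depth of 18075 UMIs, against 14220.5 in the 460, and 5 of the 18 held Stxbp5l. The part of depth and of treatment in this contrast was not tested. In all tuft-like cells the neuroendocrine list summed to 109 and 109 CPM with PBS and 215 and 161 CPM with spermidine, with 3 of its 29 genes at 0. The largest part was Resp18, at 37.8 and 42.8 CPM with PBS and 107 and 62.1 with spermidine, a gene also at 365 CPM in Aire-stage cells. Neurod1 reached 14.9 CPM in spermidine replicate 1 alone and Ghrl 14.3 CPM in replicate 2 alone. The tuft list was lower in both treated samples (17703 and 17484 CPM with PBS, 15763 and 16497 with spermidine, none of 20 genes at 0) and the myeloid list higher (412 and 368 against 462 and 494 CPM, none of 14 at 0). Other lists separated as well: the ciliated list was higher in both treated samples (273 and 276 against 339 and 308 CPM). Those of keratinocyte, goblet or secretory, fibroblast and epithelial genes were lower in both. Within cluster 0 and within cluster 1 the myeloid list overlapped between the groups. The part of these lists in the result was not tested.

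The call of Cacna2d1 held without its top cell in each sample (1.44), with each cell's count capped (1.13), with all 6 hashtags (1.65, adjusted p = 0.0125 in edgeR) and without each sample in turn (1.67 to 1.94). It was lost when the 9 genes took part in the clustering (1.23, adjusted p = 0.0938 in edgeR) and when cells were assigned by the margin between their hashtag counts (0.79, adjusted p = 0.502 in edgeR). Syt1 no longer passed when PBS replicate 1 was left out (0.75, adjusted p = 0.0574 in edgeR) or PBS replicate 2 (0.58, adjusted p = 0.0929 in edgeR), and held with all 6 hashtags (0.64, adjusted p = 0.0408). An effect past the threshold in tuft-like cells and not in neuroendocrine-like cells is not shown to differ between them: the difference was 1.49 for Cacna2d1 (SE 0.282, adjusted p = 0.367 in edgeR) and 0.72 for Syt1 (SE 0.176, adjusted p = 0.728).

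In Aire-stage cells 0 of the 9 genes passed, among 0 of 18317 genes called (0%) and 1184 with an unadjusted p under 0.05 in edgeR. Chgb was at 5.24 and 3.04 CPM with PBS and 27.2 and 30.6 CPM with spermidine, without overlap (log2 fold change 2.79, SE 0.300, adjusted p = 0.532 in edgeR). For Chgb, 2 of the 1216 cells held at least 50% of the UMIs, and 1 cell held 36.8% and 78.9% of those of the spermidine samples. Without the top cell of each sample the log2 fold change was 2.28 for Chgb and 2.25 for Scg2. Scg2 was at 6.29 and 2.64 CPM with PBS and 18.8 and 24.2 CPM with spermidine (2.25, SE 0.435, adjusted p = 0.618 in edgeR), with 5 cells holding at least 50% of its UMIs. Both values fell towards 0 or below with hashtags assigned by margin, to 0.57 for Chgb and -0.42 for Scg2, and were 1.41 and 1.36 with all 6 hashtags. DESeq2 called both, with adjusted p = 4.04e-06 and 0.0147.

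The other members of Aire-stage cells had smaller values. Snap25 was at 5.45 and 6.89 CPM with PBS and 10.5 and 18.4 CPM with spermidine (1.20, adjusted p = 0.697 in edgeR), and Scg5 at 73.6 and 119 CPM with PBS and 58.3 and 53.1 CPM with spermidine (-0.80, adjusted p = 0.701 in edgeR). Log2 fold changes were -0.42 for Chga, 0.65 for Scg3, -0.21 for Stxbp5l, -0.13 for Syt1 and -0.10 for Cacna2d1. Groups did not overlap for 3 genes that were higher and 3 that were lower with spermidine, against 19.4% and 17.2% of all genes tested. The share of thinned cells with a UMI went the same way for Snap25 (2.24% and 2.46% with PBS, 3.93% and 3.95% with spermidine) and Scg5 (22.6% and 30.8%, 19.6% and 19.6%), with p = 0.33 in the exact permutation test. Shares did not overlap for 6 of the 9 members, against 36.3% of all genes with at least 10 UMIs in the class. For Scg5 the sums of cluster 3 were at 139, 192, 128 and 95.1 CPM and those of cluster 2 at 22.1, 47.2, 20.3 and 28.4 CPM, so within cluster 2 the groups overlapped.

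Elsewhere none of the members passed in the 6 further classes with at least 20 cells in each sample. Called genes were 3 of 10612 (0.0283%) in keratinocyte-like, 1 of 8499 (0.0118%) in microfold-like, 10 of 10571 (0.0946%) in transit-amplifying-like cells, and 0% in enterocyte- or hepatocyte-like, immature mTEC-like and cluster 10 cells. The granin with the largest value was Chga in enterocyte- or hepatocyte-like cells, at 154 and 60.3 CPM with PBS and 44.7 and 6.80 CPM with spermidine (-2.10, SE 0.719, adjusted p = 0.845 in edgeR), where 1 cell held 76.0% of the UMIs of PBS replicate 1. Scg5 lay lower in both treated samples in keratinocyte-like cells (52.3 and 69.7 CPM with PBS, 31.1 and 35.6 with spermidine, adjusted p = 0.645 in edgeR). The low Cacna2d1 value of microfold-like cells (-2.81, SE 0.964, adjusted p = 0.9997 in edgeR) rested on the 1 cell of PBS replicate 1 named above.

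Of the other vesicle and granule genes, 0 passed in any of the 3 main classes. In neuroendocrine-like cells 60 were tested and 32 had a value above 0, near the 49.8% of all genes, and the ends of the range were Pcsk1n (-1.30), an inhibitor of the convertase PC1, and Stx1a (-0.76), a SNARE partner of Snap25, against the calcium channel genes Cacna2d2 (1.26) and Cacna1c (1.29). In tuft-like cells 35 of 60 (58.3%) were above 0, against 50.2% of all genes. They ran from Syngr1 (-1.18) and Sv2c (-0.66), vesicle membrane proteins, to the channel subunit Cacnb2 (0.86) and Resp18 (1.13, adjusted p = 0.0842 in edgeR). In Aire-stage cells 50 of 89 (56.2%) were above 0, against 49.6% of all genes. They ran from Syt2 (-1.39) and Rims1 (-1.06) to Stx2 (2.53) and Cplx1 (2.71).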

How the data were processed

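The authors deposited raw counts of UMIs per gene and hashtag in 12139 barcodes of 1 pooled library, which the file headers attribute to Cell Ranger 7.1.0. The submitters' processing notes name the build mm10, bcl2fastq and Seurat, while annotation and read filters are not given in the sources used here. Of these, barcodes with at least 1000 UMIs, 500 genes and under 15% mitochondrial UMIs (8534) were assigned with HTODemux of Seurat 5.3.0 (positive quantile 0.99): 4709 to 1 sample, 1027 as hashtag doublets, left out, and 2798 as negatives, left out. Doublets within 1 sample were not sought, since no caller working on RNA was used. Cells were clustered in scanpy 1.11.5 (Leiden resolution 1) without the 9 genes, and clusters were named from marker lists, with at least 3 markers 2-fold higher. Clusters with 3 or more neutrophil granule genes among their 10 leading genes stayed unnamed, a rule added after those genes were seen. One marker of the lists is not reported here.

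UMIs were summed per sample and class and compared in edgeR 4.0.16 (quasi-likelihood, TMM, filterByExpr, Benjamini-Hochberg over all genes tested, 0.05), for classes with at least 20 cells in each sample. A simulated table of known changes was tested first. CPM are a gene's UMIs scaled to a common total per class and sample. Shares of cells are expected shares at 5000 UMIs per cell, with shallower cells left out. Genes outside the 9 were named by a fixed rule: the 5 highest of the vesicle list, its 2 highest and 2 lowest values per fit, the 3 genes with the highest r to each member, and 3 leading genes of a class. Members and lists were chosen with earlier results of these data known. Replicate numbers do not pair the samples, since deviations of same-numbered samples had correlations of -0.02, 0.003 and 0.02. Alternatives were DESeq2 1.42.0, no count filter, the replicate number as a block, other clusterings, other hashtag assignments, capped counts and leaving out each sample.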

Additional observations from a re-analysis of the deposited data

Results flagged for a closer look

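The treatment effect on Syt1 differed between 2 tuft-like clusters, by 0.96 on the log2 scale (cluster 1 minus cluster 0, SE 0.149, adjusted p = 0.0487 in edgeR), a comparison added after the data were seen.

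The hashtags HT6 and HT7 have no sample in the labels, and their cells (1187 and 1219 with all 6 hashtags) enter no comparison. Over all their cells Scg2 was at 13.02 and 22.01 CPM, above the 10.2 and 11.6 CPM of the PBS samples under that assignment, while the spermidine samples were at 12.75 and 8.43 CPM. In each of these 6, 1 cell held from 31.1% to 40.2% of the UMIs. Syt1 was at 1539 and 1542 CPM in HT6 and HT7, against 1434 and 1479 CPM in the PBS samples and 1543 and 1460 CPM in the spermidine samples.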

How the results depend on the processing

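With 2 samples per group, counts of called genes moved with nearly every setting, and 1 cell or 1 sample set several granin values. The cause of the changes below was not tested. Leaving out 1 sample leaves 1 sample in its group, so nothing is read from the counts of members or genes called without each sample. Outside the 3 main classes, most such fits also called more of all genes than the main fit. In neuroendocrine-like cells the members called were 0 to 1 without each sample in turn and 1 (Chgb) with no count filter. All genes called there were 40 to 106 without each sample, 231 with no filter, 3 with the replicate block, 6 in DESeq2 and 1 with the 9 genes in the clustering. In tuft-like cells the members called were 1 to 3 without each sample, 1 with the genes in the clustering (Syt1) and 1 with assignment by margin (Syt1). All genes called there were 3 to 271 without each sample, 474 with no filter, 97 with the replicate block, 40 in DESeq2, 21 with the genes in the clustering, 23 at resolution 0.5, 8 by margin, 63 with capped counts and 65 without top cells. In Aire-stage cells 1 member was called with no filter and 2 in DESeq2, among 12 and 95 genes. In the other named classes 1 to 4 member tests passed without each sample. Of 27 shares of cells with a UMI, 9 did not overlap between groups, near the 32.7% to 38.4% of all genes, and 16 to 21 without each sample, where no share over all genes was computed and nothing is read from the counts.

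Directions turned as follows. Without top cells Chga in neuroendocrine-like cells was at 0.0078. Scg2 there was at 0.022 with the genes in the clustering, 0.055 at resolution 0.5 and 0.25 by margin. Tuft-like Chga was at -0.44 and Stxbp5l at -0.29 with the genes in the clustering. Tuft-like cluster 0 alone gave -0.58 for Chgb, -0.062 for Scg5 and -0.014 for Syt1. In Aire-stage cells Scg2 was at -0.42 by margin, Stxbp5l at 0.14 with the genes in the clustering and 0.045 at resolution 0.5, and Cacna2d1 at 0.37 at resolution 0.5, 0.023 at resolution 2, 0.26 by margin and 0.032 with capped counts. Leaving out each sample gave, in neuroendocrine-like cells, -0.66 to 0.58 for Chga, -1.11 to 0.087 for Chgb, -2.79 to 0.40 for Scg2, -0.057 to 0.36 for Scg3, -0.15 to 0.023 for Syt1 and -0.029 to 0.61 for Cacna2d1. In tuft-like cells it gave -0.70 to 1.01 for Chga and -2.38 to 1.57 for Chgb, and in Aire-stage cells -0.60 to 0.31 for Stxbp5l and -0.45 to 0.35 for Cacna2d1.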
